A study of Mus musculus with 9 samples.

Results

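The genes described here are 10 markers of T lymphocytes and natural killer (NK) cells, namely Cd3d, Cd3e, Cd3g, Cd4, Cd8a, Lck, Foxp3, Nkg7, Gzmb and Pdcd1. They were taken by symbol from a deposited table of 54453 mouse genes, and all 10 were found there. RNA from whole primary pancreatic tumors was sequenced in 9 samples of the KPC line, a genetically engineered mouse model of pancreatic ductal adenocarcinoma. Of these, 5 tumors (7, 14, 15, 18 and 23) are labelled Scrib null, written KPF/+CSF/F, and 4 tumors (2, 3, 6 and 9) are labelled Scrib WT, written KPF/+C. Strain KPC is common to both groups, so every tumor carries whatever alleles that name stands for. The labels spell out neither those alleles, nor the Cre driver, nor the age of the mice, and do not state how many mice gave the tumors. The p-values therefore speak of the spread among these samples. Scrib encodes a polarity scaffold protein.

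A T cell recognises antigen through a receptor whose signalling chains CD3δ, CD3ε and CD3γ are encoded by Cd3d, Cd3e and Cd3g. The coreceptors CD4 and CD8 bring the kinase LCK to that complex, and LCK phosphorylates the CD3 chains. Cytotoxic T cells and NK cells kill with granules that hold granzyme B, while regulatory T cells, which depend on the factor FOXP3, and the inhibitory receptor PD-1, encoded by Pdcd1, restrain the response. Pancreatic ductal tumors are known as poorly infiltrated by effector T cells.

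The 3 CD3 genes lie together on mouse chromosome 9. The start of Cd3g lies 1355 bases from that of Cd3d, with the genes facing away from each other, and the start of Cd3e lies 27825 bases beyond that of Cd3d. Their upstream sequences are shown because neighbouring genes of one receptor complex are the members whose differences between groups are set side by side below. Each is the 250 bases before the start in RefSeq on GRCm38.p6, read 5′ to 3′ on the strand of the gene, and capitals mark the motif AGGAAG, the core bound by many ETS factors, on either strand.
Cd3d, chr9:44981536-44981785, plus strand: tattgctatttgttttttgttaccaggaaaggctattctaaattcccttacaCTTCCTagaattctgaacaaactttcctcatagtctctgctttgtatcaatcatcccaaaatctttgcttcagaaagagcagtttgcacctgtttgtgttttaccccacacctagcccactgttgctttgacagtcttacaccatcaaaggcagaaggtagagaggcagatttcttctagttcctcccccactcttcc
Cd3g, chr9:44980432-44980681, minus strand: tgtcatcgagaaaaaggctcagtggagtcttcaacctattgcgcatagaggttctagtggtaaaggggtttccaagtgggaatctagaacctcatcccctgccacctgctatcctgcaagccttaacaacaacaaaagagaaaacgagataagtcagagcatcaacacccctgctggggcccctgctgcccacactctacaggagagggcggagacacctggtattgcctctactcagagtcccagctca
Cd3e, chr9:45009612-45009861, minus strand: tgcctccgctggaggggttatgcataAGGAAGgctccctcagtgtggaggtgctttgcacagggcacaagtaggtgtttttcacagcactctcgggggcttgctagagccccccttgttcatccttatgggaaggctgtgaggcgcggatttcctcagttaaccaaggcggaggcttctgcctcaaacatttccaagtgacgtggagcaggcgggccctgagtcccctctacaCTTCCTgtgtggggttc
The ETS core stood once in the Cd3d window, at 198 to 193 bases before the start, and at 2 places in the Cd3e window, at 224 to 219 and at 17 to 12 bases before the start. The Cd3g window did not hold it. Of 32851 promoter windows of the same length, 29.5% held it. The motif TGTGGT, a core of RUNX sites, was searched on both strands too, was in none of the 3 windows and was in 14% of all. These letter matches do not overlap and describe the windows only.

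Depth limits everything said about these genes. Estimated counts summed to between 19281212 and 27596832 in the null tumors and between 10145830 and 26502285 in the WT tumors. Of the 90 values of the 10 genes in 9 tumors, 59 were under 10 counts and 9 were 0. A count of 0 allows up to 3 counts, which is 0.109 to 0.156 CPM (counts per 1000000 of the library) of the unscaled total in the null libraries and 0.113 to 0.296 CPM in the WT libraries, and such limits cover counting error only. Scrib mRNA itself averaged 60.3 ± 24.6 CPM (SD, n = 5) in null and 70.5 ± 21.4 CPM (SD, n = 4) in WT tumors, a difference smaller than the spread (edgeR quasi-likelihood adjusted p = 0.712), so directions here are between tumors as labelled. Null 7 had the lowest sums of fibroblast and endothelial markers, 271 and 37.8 CPM, and WT 3 had the highest sum of neutrophil markers, 2835 CPM, and the smallest scaling factor, 0.835. Values without both are therefore given for several results, though not for every result that they move. For one, the log2 fold change of Cd4, null over WT, was -0.17 with all tumors and -0.60 without both. That of Cd80 was -0.78 with all tumors and -0.39 without both. By Xist and Y-linked transcripts, tumors null 7, null 18 and WT 3 were male and the other 6 female.

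The 3 CD3 genes and Lck had lower mean levels in the tumors labelled null, among the 10 genes most of all Cd3d and Cd3g, but none of the 10 passed the test over all genes. The test was edgeR's quasi-likelihood fit with Benjamini-Hochberg adjustment over every gene tested and a threshold of 0.05. Only 4 of the 10 genes, Cd3e, Cd3g, Cd4 and Lck, passed the filter on low counts, and the other 6 were read from the same fit without a filter. Of the 10 genes 0 were called by edgeR, where 0.0124% of 16169 filtered and 0.0229% of 30590 unfiltered genes were called. DESeq2, which called 3.39% of the genes it adjusted, called 0 of the 8 members it adjusted, and limma-voom, which called 0.0124% of filtered and 0.00981% of unfiltered genes, called 0 of 10. At an unadjusted p under 0.05 edgeR listed 2 of the 10, Cd3d and Cd3g, against 17.7% of filtered and 13.1% of unfiltered genes. DESeq2 listed the same 2 genes at that level, against 12.6% of genes, and limma-voom listed 3, Cd8a being the other, against 17.4% of filtered and 15.7% of unfiltered genes. In the main fits the fold change was below 0 for 10 of 10 genes, as it was for 52.2% of filtered and 51.3% of unfiltered genes, with a median log2 fold change of -0.81 against -0.04 for filtered genes. Signs of Cd4, Foxp3, Nkg7 and Gzmb turned in at least 1 alternative fit. The groups overlapped for all 10 genes, while they did not overlap for 6.91% of filtered and 4.29% of unfiltered genes. In RNA from whole tumors, fewer cells of a type and less RNA per cell cannot be told apart.

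Cd3d (chromosome 9, 44981786 to 44987339, GRCm38), the CD3δ chain, had 0, 2, 11, 4 and 4 counts in null tumors 7, 14, 15, 18 and 23, against 3, 24, 27 and 13 counts in WT tumors 2, 3, 6 and 9. In CPM, all null tumors but null 15 lay below every WT tumor, and null 15 lay above WT 2 alone. The means were 0.154 ± 0.138 CPM (SD, n = 5) in null and 0.988 ± 0.780 CPM (SD, n = 4) in WT tumors. Null over WT, this was a log2 fold change of -2.54 (SE 0.85, edgeR adjusted p = 0.273), with a 95% confidence interval from -4.35 to -0.74. DESeq2 gave an adjusted p of 0.0522 for it, and over the 16 alternatives the adjusted p ran from there to 0.576. Without both WT 3 and null 7 the log2 fold change was -1.67, and without null 15 it was -3.16.

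Cd3g (chromosome 9, 44969572 to 44980431), the CD3γ chain, had 6, 2, 19, 2 and 6 counts in the null tumors, taken in the same order, against 5, 18, 9 and 34 counts in the WT tumors. In CPM, WT 3 and WT 9 stood above every null tumor, while WT 2 and WT 6 lay below null 15. Means were 0.269 ± 0.231 CPM in null and 0.962 ± 0.637 CPM in WT tumors, and the log2 fold change was -1.80 (SE 0.71, edgeR adjusted p = 0.248; 95% confidence interval -3.37 to -0.22). It was -1.48 without both WT 3 and null 7.

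Cd3e (chromosome 9, 44998740 to 45009627), the CD3ε chain, had 4, 2, 29, 7 and 9 counts in the null tumors, against 3, 10, 17 and 18 counts in the WT tumors. Null 15 held 0.993 CPM, the highest of all 9 tumors, and the other null tumors held 0.105 to 0.318 CPM. Means were 0.376 ± 0.354 CPM in null and 0.645 ± 0.254 CPM in WT tumors. The log2 fold change was -0.76 (SE 0.65, edgeR adjusted p = 0.539), or -1.47 without null 15 and -0.43 without both WT 3 and null 7.

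Lck (chromosome 4, 129548344 to 129573641), the kinase of the coreceptors, was the best measured of the 10 genes. It had 9, 44, 82, 44 and 47 counts in the null tumors, against 23, 53, 93 and 61 counts in the WT tumors. Null 7 was lowest at 0.454 CPM and WT 3 highest at 4.55 CPM, and null 14 and null 15 reached levels inside the WT range. Means were 1.77 ± 0.885 CPM in null and 3.24 ± 1.05 CPM in WT tumors, a log2 fold change of -0.87 (SE 0.50, edgeR adjusted p = 0.370; 95% confidence interval -1.97 to 0.24). Without both WT 3 and null 7 it was -0.39.

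The coreceptors differed from each other in which tumors held them. Cd4 (chromosome 6, 124864692 to 124888221), which marks helper and regulatory T cells, had 16, 3, 15, 18 and 15 counts in the null tumors, against 1, 2, 18 and 31 counts in the WT tumors. WT 2 held the lowest level, at 0.0955 CPM, and WT 9 the highest, at 1.35 CPM, so the null tumors lay inside the WT range. Its log2 fold change of -0.17 (SE 0.71, edgeR adjusted p = 0.916) was 0.62 without WT 9 and 0.05 without null 14, and 0.31 with the range of tumor identifiers as a covariate. Cd8a (chromosome 6, 71373427 to 71379173), a chain of the coreceptor of cytotoxic T cells, had 0, 0, 10, 0 and 4 counts in the null tumors, against 3, 4, 7 and 2 counts in the WT tumors. It was listed at 0 in 3 of 5 null tumors and in 0 of 4 WT tumors. Those zeros allow up to 0.148, 0.156 and 0.115 unscaled CPM in null 7, null 14 and null 18, against a measured 0.0899 unscaled CPM in WT 9, so a difference from that tumor was not detectable at this depth. The sums over groups were 14 counts in null and 16 in WT tumors, and the log2 fold change was -1.15 (95% confidence interval -3.49 to 1.19, edgeR adjusted p = 0.592). It was -2.42 without null 15, -2.13 with limma-voom and -0.67 without both WT 3 and null 7.

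Foxp3 (chromosome X, 7573644 to 7595245), the factor of regulatory T cells, had the lowest level per length of the 10 genes. It had 2.55, 0, 7, 3 and 2 counts in the null tumors, against 0, 5, 1 and 4 counts in the WT tumors. The ranges covered each other, from 0 to 0.240 CPM in null and from 0 to 0.430 CPM in WT tumors. The log2 fold change of -0.35 (SE 1.05, edgeR adjusted p = 0.883) was 0.58 without WT 3.

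Pdcd1 (chromosome 1, 94038305 to 94052553), which encodes PD-1, had 1, 3, 11, 4 and 4 counts in the null tumors, against 4, 2, 16 and 13 counts in the WT tumors. In CPM, WT 6 and WT 9 lay above every null tumor, and WT 3, with 2 counts, lay below null 15 alone. In unscaled CPM WT 3, at 0.143, lay below null 14, null 18 and null 23 as well, at 0.156, 0.153 and 0.152. Null 15 and WT 2 were level, at 0.377 CPM in null 15 and 0.382 CPM in WT 2, and their order turned in unscaled CPM. Means were 0.175 ± 0.121 CPM in null and 0.434 ± 0.201 CPM in WT tumors, a log2 fold change of -1.25 (SE 0.74, edgeR adjusted p = 0.468; 95% confidence interval -2.82 to 0.33). WT 3, the highest WT tumor for 8 of the 10 genes by scaled CPM, was the lowest for this gene.

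The cytotoxic genes were close to the limit of detection. Nkg7 (chromosome 7, 43437073 to 43438249), a granule membrane protein of NK and cytotoxic T cells, had 7, 1, 17, 1 and 3 counts in the null tumors, against 0, 11, 5 and 8 counts in the WT tumors. Its log2 fold change of -0.63 (SE 0.99, edgeR adjusted p = 0.763) was 0.26 without WT 3. Gzmb (chromosome 14, 56258838 to 56262260), the serine protease granzyme B, had 1, 2, 8, 0 and 1 counts in the null tumors, against 0, 2, 4 and 2 counts in the WT tumors. Its log2 fold change was -0.14 (SE 1.05, edgeR adjusted p = 0.958). That sign turned without WT 3 (0.09), WT 6 (0.15), null 18 (0.19), null 23 (0.07) or null 7 (0.001), so no direction was measurable. Other mouse granzyme genes lie in the same cluster and are close in sequence, so reads may have been shared among them.

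**Figure D1:**
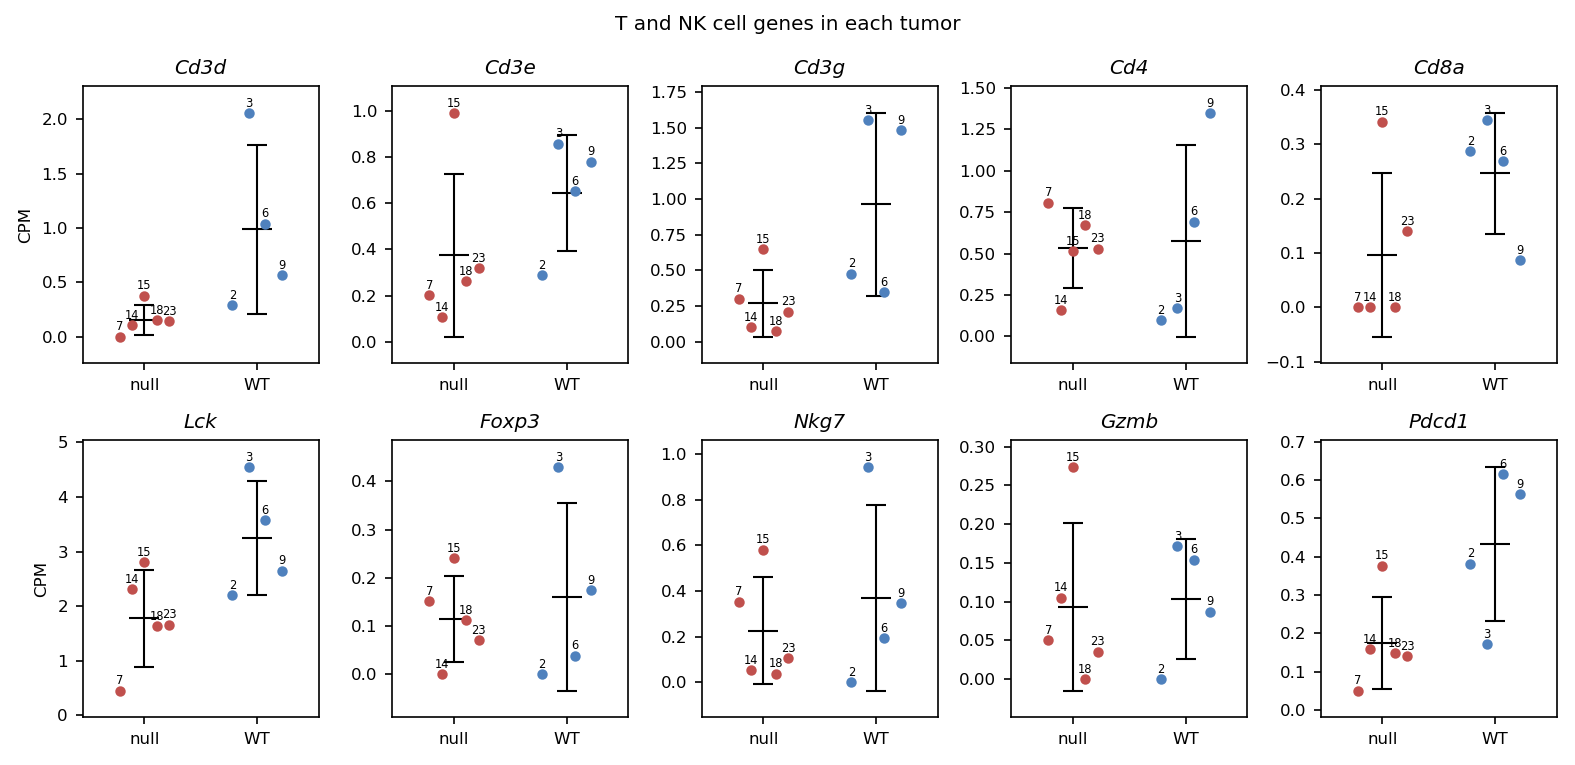
CPM over the scaled library (vertical axis, linear, a scale of its own for each gene) of the 10 genes in 5 null tumors (red, left) and 4 WT tumors (blue, right); points carry the tumor number, and bars give the mean and SD. Null 15 was the highest null tumor for 9 of the 10 genes and WT 3 the highest WT tumor for 8. In unscaled CPM WT 3 was not the highest for Cd3e, Cd3g, Cd8a and Gzmb.

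The spread within a group was larger than Poisson counting at the mean count gives for all 10 genes in null tumors and for 9 in WT tumors, Cd8a being the exception. That reference ignores differences in depth, and scaled WT libraries ran from 10468972 to 25984216. For Gzmb in WT tumors, with 8 counts in all, 75.5% against 70.7% is therefore too close to tell apart from counting. In null tumors the SD was from 45.3% of the mean for Cd4 to 155% for Cd8a, and in WT tumors from 32.2% for Lck to 121% for Foxp3. Poisson counting at the mean count would give 27.3% and 59.8% for Cd4 and Cd8a in null tumors, and 13.2% and 63.2% for Lck and Foxp3 in WT tumors. Null 15 was the highest null tumor for 9 of the 10 genes, all but Cd4, and null 7 was listed as the lowest, alone, for Cd3d, Lck and Pdcd1. For Cd3d that was a 0, which allows up to 0.148 unscaled CPM, above the 0.104 unscaled CPM of null 14. For Pdcd1 it was 1 count. By scaled CPM WT 3 was the highest WT tumor for 8, but in unscaled CPM it was not the highest for Cd3e, Cd3g, Cd8a and Gzmb. WT 2, the shallowest library, was the lowest WT tumor for 7, of which 3 were zeros. Summed over the 10 genes the levels were 2.37, 3.10, 7.15, 3.09 and 3.35 CPM in null tumors 7, 14, 15, 18 and 23, against 4.01, 11.2, 7.58 and 8.07 CPM in WT tumors 2, 3, 6 and 9. Null 15 thus lay between WT 2 and WT 6, and the other null tumors lay below all WT tumors. Neither order was firm: without Lck null 7 (1.92 CPM) lay above WT 2 (1.81 CPM), and null 15 (4.35 CPM) lay above WT 6 (4.00 CPM). These orders depended on the scaling too. In unscaled CPM null 15 lay above WT 6 with Lck included, and null 7 lay just below WT 2 without Lck.

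**Figure D2:**
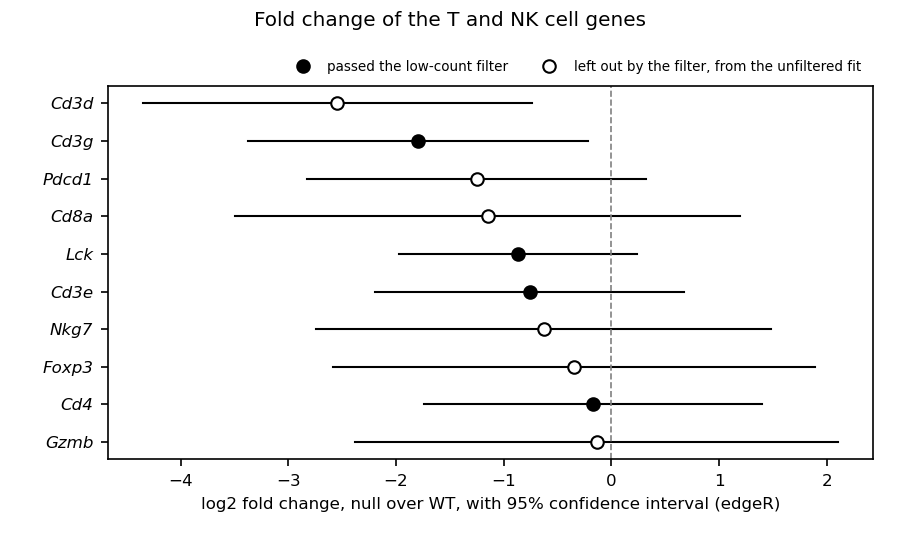
Log2 fold change, null over WT (horizontal axis), with 95% confidence interval from the edgeR fit for each of the 10 genes; filled points passed the low-count filter and open points come from the fit without it. The points run from -2.54 for Cd3d to -0.14 for Gzmb, and the unadjusted intervals of Cd3d and Cd3g alone lie below 0.

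Sex and the numbers in the tumors' identifiers were not balanced between the groups. Among the 6 female tumors, 3 null and 3 WT, mean Cd3d was 0.208 CPM in null and 0.63 CPM in WT tumors, mean Cd3g was 0.322 and 0.767 CPM in null and WT tumors, and mean Lck 2.26 and 2.81 CPM. Foxp3, Nkg7 and Gzmb went the other way there, with 0.103, 0.247 and 0.138 CPM in null tumors, against 0.0707, 0.18 and 0.0802 CPM in WT tumors. The males were 2 null tumors and 1 WT tumor, too few to compare. Of the 5 tumors with identifiers over 20000, 2 null tumors had a mean Cd3d of 0.145 CPM and 3 WT tumors one of 1.22 CPM, and the 10 genes were all lower in the null tumors there. Below that number WT 2 was the one WT tumor, and Cd3e, Cd4, Foxp3, Nkg7 and Gzmb were higher in the 3 null tumors than in it. Foxp3, Nkg7 and Gzmb were at 0 in WT 2, which allows up to 0.296 unscaled CPM. Their null means there were 0.13, 0.329 and 0.143 CPM, so for Foxp3 and Gzmb a difference was not detectable at this depth. That of Nkg7 lay just above the limit.

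Levels of different genes were compared per kilobase of annotated exon (CPM per kb). Lck had 0.606 ± 0.302 CPM per kb in null and 1.11 ± 0.357 CPM per kb in WT tumors, the highest of the 10 in both groups. Over all tumors Nkg7 followed, with 0.247 ± 0.258 CPM per kb in null tumors and 0.406 ± 0.446 CPM per kb in WT tumors. The order went on through Cd3d, Cd3g, Pdcd1, Cd4 and Cd3e, with means from 0.289 to 0.121 CPM per kb, and ended with Gzmb, Cd8a and Foxp3 at 0.0679, 0.0449 and 0.0295 CPM per kb. The groups differed in this order: Cd3d came after Lck in WT tumors, at 0.544 ± 0.430 CPM per kb, while in null tumors, at 0.0851 ± 0.0758 CPM per kb, it came after Nkg7, Cd4, Cd3e and Pdcd1. The ranges of mean ± SD overlapped for every pair of neighbours in the order, Lck and Nkg7 included, in null and in WT tumors.

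Ratios within a library do not depend on its scaling, so 5 were compared on the log2 scale, with 0.5 added to each count, by exact two-sided permutation over all 126 splits of the tumors. The smallest p this allows is 0.00794. None passed the threshold. Cd8a over Cd4 averaged -3.08 ± 2.03 (SD, n = 5) in null and -0.72 ± 2.25 (SD, n = 4) in WT tumors (difference -2.36, exact permutation p = 0.143, adjusted p = 0.496 over the 5 ratios). In the group sums this was 14 Cd8a to 67 Cd4 counts in null tumors, against 16 to 52 in WT tumors. Cd8a was at 0 in null 7, null 14 and null 18, so its ratios there are set by the number added: with 2 added the difference was -1.25, and without both WT 3 and null 7 it was -1.35. Gzmb over Cd8a averaged 0.40 ± 1.56 in null and -1.10 ± 1.20 in WT tumors (exact permutation p = 0.198, adjusted p = 0.496). With those 3 zeros in its denominator, and null 18 at 0 for both genes, this ratio was not measured in 3 of the 5 null tumors. Its difference of 1.501 was 0.69 with 2 added. Foxp3 over Cd4 averaged -2.27 ± 0.70 in null and -1.72 ± 2.08 in WT tumors (exact permutation p = 0.683, adjusted p = 0.786), and the sign of that difference turned without WT 3, to 0.41. Pdcd1 over Cd3e averaged -0.85 ± 0.81 in null and -0.56 ± 1.06 in WT tumors (exact permutation p = 0.627, adjusted p = 0.786); the difference of -0.29 was 0.015 without WT 2. Cd3e over Ptprc, the gene of the leukocyte marker CD45, averaged -6.15 ± 0.99 in null and -5.98 ± 0.84 in WT tumors (exact permutation p = 0.786, adjusted p = 0.786). That difference of -0.17 was 0.14 without null 14 and 0.095 without WT 6.

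**Figure D3:**
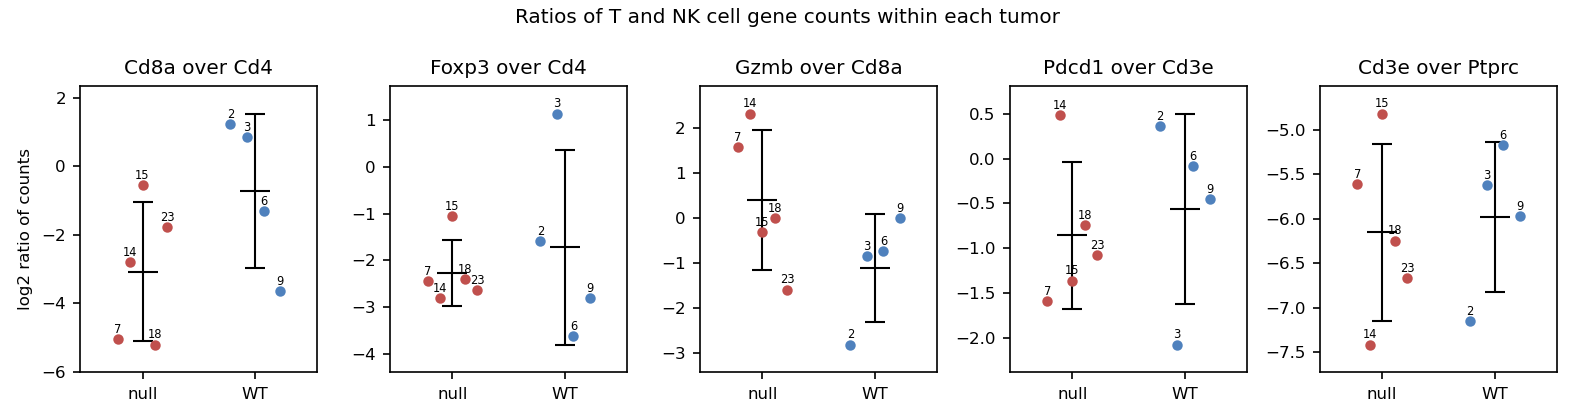
Log2 ratio of counts (vertical axis, a scale of its own for each ratio) in 5 null tumors (red, left) and 4 WT tumors (blue, right); points carry the tumor number, and bars give the mean and SD. The groups overlap in all 5 ratios, and Cd8a over Cd4 has the widest gap between means, -3.08 in null against -0.72 in WT tumors.

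Other genes of T and NK cells, 97 in 11 lists, were mostly below 0 as well. Of these 57 passed the filter, 42 with a log2 fold change below 0 and 15 above, and the median was -0.65. By edgeR and by limma-voom 0 were called, the smallest edgeR adjusted p being 0.201. DESeq2 called 1 of the 56 it adjusted, Cd86, with a DESeq2 adjusted p of 0.0192, against 3.39% of all genes it adjusted. With an unadjusted p below 0.05 there were 16 lower and 1 higher, against 10% and 7.64% of all filtered genes. Groups did not overlap for 3 of the 57, all lower in null tumors, namely Lat, Cd86 and S1pr1, against 3.49% of filtered genes in that direction. For S1pr1 the nearest tumors were WT 3 at 12.8 CPM and null 23 at 12.6 CPM, and their order turned in unscaled CPM. Several of the genes are also made by macrophages, endothelium or fibroblasts, among them Lcp2, Cd86, Entpd1, S1pr1 and Thy1.

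Of 7 tested genes of T cell signalling and costimulation, 7 were below 0, and 5 of them had an unadjusted p under 0.05. Lat, the adaptor that LCK and ZAP70 signals meet on, averaged 0.616 ± 0.184 CPM (SD, n = 5) in null and 1.41 ± 0.333 CPM (SD, n = 4) in WT tumors (edgeR adjusted p = 0.224). The adhesion receptor gene Cd2 averaged 0.298 ± 0.296 CPM in null and 1.05 ± 0.471 CPM in WT tumors (edgeR adjusted p = 0.233), and the adaptor gene Lcp2 had a log2 fold change of -0.97. Among the 4 tested T cell receptor chains, Trdc, the constant part of the delta chain, had a log2 fold change of -1.31 and an edgeR adjusted p of 0.254, while Trac, the constant part of the alpha chain, averaged 1.32 CPM in null and 1.53 CPM in WT tumors. Trbc1 and Trbc2, near-identical constant parts of the beta chain whose reads may be split between them, had log2 fold changes of -1.77 and 1.06 with SEs of 1.35 and 0.98. Either sign rested on 1 tumor: Trbc1 was 1.25 without WT 3, which held 58.8 CPM, and Trbc2 was -0.54 without null 14, which held 32.3 CPM.

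Regulatory T cell genes went in both directions, with 3 of 5 tested below 0. Tnfrsf18, the costimulatory receptor GITR, averaged 2.03 ± 1.12 CPM in null and 5.12 ± 2.36 CPM in WT tumors (edgeR adjusted p = 0.236). Tnfrsf4 had a log2 fold change of -0.73 and Ikzf2 one of 0.92. WT 3 held 0.172 CPM of Ikzf2, from 2 counts, against 8.59 to 23.1 CPM in the other tumors, so that tumor weighs on the value of Ikzf2. Of 6 tested checkpoint receptors 5 were below 0, with Cd244a at -1.34 and Entpd1 at -0.89. Tigit, an inhibitory receptor of T and NK cells, went the other way with 18.8 ± 18.9 CPM in null and 7.07 ± 2.42 CPM in WT tumors (edgeR adjusted p = 0.269), and null 14 held 52.3 CPM of it, against 6.09 to 13.7 CPM in the other null tumors. Without null 14 its log2 fold change of 1.41 was 0.56. Null 14 held 994 counts of Tigit, but 2 counts each of Cd3d, Cd3e and Cd3g. Over the 9 tumors Tigit and Ikzf2 ran against the mean log2 CPM of Cd3d, Cd3e, Cd3g and Lck (Pearson r of -0.75 and -0.74). The low Ikzf2 value of WT 3 weighs on the second r, and neither r is given without single tumors. Which cells held the transcripts of Tigit and Ikzf2 was not tested. Among the 7 ligands of such receptors, Cd86 averaged 3.82 ± 1.47 CPM in null and 9.77 ± 2.75 CPM in WT tumors (edgeR adjusted p = 0.201), while Cd80 and Nectin2 had log2 fold changes of -0.78 and 0.42.

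Of 20 cytotoxic and NK cell genes only 6 passed the filter, 4 of them below 0. The NK receptor Ncr1 reached at most 4 counts in a tumor, perforin, Prf1, at most 7 and interferon gamma, Ifng, at most 2. Others of the list were better measured, with Klrb1c reaching 23 counts, Eomes 247 and Ctsw 288. Eomes, a T-box factor of NK and memory T cells, had 5.96 ± 4.75 CPM in null and 1.51 ± 1.83 CPM in WT tumors (edgeR adjusted p = 0.303). It was 3.33 on the log2 scale without WT 3, against 2.00 with it. Null 7 held the 247 counts of Eomes, and 0 counts of Cd3d, 4 of Cd3e, 6 of Cd3g, 16 of Cd4 and 7 of Nkg7. The Pearson r of Eomes with the mean of the CD3 genes and Lck was -0.49, and which cells held it was not tested. The cathepsin gene Ctsw and the NK receptor gene Klrb1c had log2 fold changes of -1.11 and -0.58, and that of Ctsw was 0.19 without WT 3, which held 24.7 CPM. In the Gzmb cluster, Gzmc, Gzmd and Gzme had log2 fold changes of -1.51, -0.72 and -0.60. Without WT 3 they were -0.77, 0.42 and 0.56. Gzme ran from 1.67 CPM in null 7 to 78.9 CPM in null 15 among null tumors and from 6.60 CPM in WT 9 to 120 CPM in WT 3 among WT tumors, levels far above those of Gzmb.

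For genes of naive and memory T cells 5 of 8 were below 0. S1pr1, the receptor that lets lymphocytes leave lymphoid organs and that endothelium also makes, averaged 9.93 ± 4.18 CPM in null and 21.1 ± 10.3 CPM in WT tumors (edgeR adjusted p = 0.261), and Ccr7 had a log2 fold change of -0.99. The chemokine receptor gene Cxcr6 had a log2 fold change of -1.66. Of 8 tested chemokines that draw T cells 5 were below 0. Ccl17 averaged 4.06 ± 2.60 CPM in null and 14.9 ± 10.5 CPM in WT tumors (edgeR adjusted p = 0.227), and Ccl20 and Cxcl13 had log2 fold changes of -1.58 and -2.20. They were -0.69 for Ccl20 without WT 3 and -0.58 for Cxcl13 without WT 2. Cxcl13, which draws B cells and follicular T cells, reached 15.3 CPM in WT 2, while WT 3, WT 6 and WT 9 held 1.19 to 2.47 CPM. The helper T cell cytokine genes Il4, Il17a and Il21 had at most 1 count in any tumor.

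Most markers of other immune cells, fibroblasts and endothelium also had lower means in null tumors, and their part in the T cell values was not tested. Of the 60 marker genes tested edgeR called 0 and listed 23 at an unadjusted p under 0.05, against 0.0124% and 17.7% of filtered genes. Among these 23, 1 was higher in null tumors, a dendritic cell marker. By limma-voom 0 were called, against 0.0124%. DESeq2 called 6 of the 57 it adjusted, against 3.39% of all genes it adjusted. These were Cd52, Mrc1, Fcgr1, Cd79b, Mzb1 and Mmp9, all lower in null tumors. Counts below 0 stand against 52.2% of all filtered genes, and the summed ranges of every list but that of B and plasma cells overlapped between the groups. That exception was 14.79 CPM in null 15 against 14.86 CPM in WT 3. It rested on the scaling, with factors of 1.06 and 0.835 for these tumors, and the order turned in unscaled CPM. Summed pan-leukocyte markers (6 of 6 below 0) ran from 123 to 364 CPM in null and from 240 to 796 CPM in WT tumors. Macrophage markers (10 of 10 below 0) ran from 437 to 1032 CPM in null and from 830 to 1966 CPM in WT tumors. B and plasma cell markers (6 of 6 tested below 0) ran from 3.53 to 14.8 CPM in null and from 14.9 to 49.7 CPM in WT tumors, and neutrophil markers (7 of 7 below 0) from 91.6 to 629 CPM in null and from 220 to 2835 CPM in WT tumors. Fibroblast (8 of 8) and endothelial markers (6 of 6) were below 0 as well, with sums from 271 to 2701 and from 37.8 to 220 CPM in null tumors, against 1139 to 6568 and 209 to 422 CPM in WT tumors. Epithelial markers had 5 of 7 above 0, with sums from 6729 to 12960 CPM in null and from 8073 to 11650 CPM in WT tumors. Dendritic and mast cell markers, with 1 of 2 and 2 of 3 tested genes below 0, and acinar markers, with 2 of 5, overlapped between the groups.

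The T cell genes followed the leukocyte marker in part, with a Pearson r of 0.71 between log2 CPM of Ptprc and the mean of Cd3d, Cd3e, Cd3g and Lck over the 9 tumors, given as a description. Such an r was not particular to Ptprc, which ranked at 1233 among 13890 genes compared. The epithelial gene Krt19 (r = 0.70) ranked at 1315. Ptprc averaged 23.5 ± 8.64 CPM in null and 41.7 ± 11.8 CPM in WT tumors (edgeR adjusted p = 0.248). WT 2 held 47.4 CPM of Ptprc and the highest macrophage and B cell sums, and was listed as the lowest WT tumor for 7 of the 10 genes. It was also the shallowest library, and 3 of those 7 genes, Foxp3, Nkg7 and Gzmb, were at 0 there. A 0 in WT 2 allows up to 0.296 unscaled CPM, above the 0.0377, 0.189 and 0.151 unscaled CPM of these genes in WT 6. Null 15, with 28.5 CPM of Ptprc, less than the 34.1 CPM of null 23, was the highest null tumor for 9. Null 7 was lowest of all for Ptprc, at 11.1 CPM, and for the fibroblast, endothelial and macrophage sums.

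**Figure D4:**
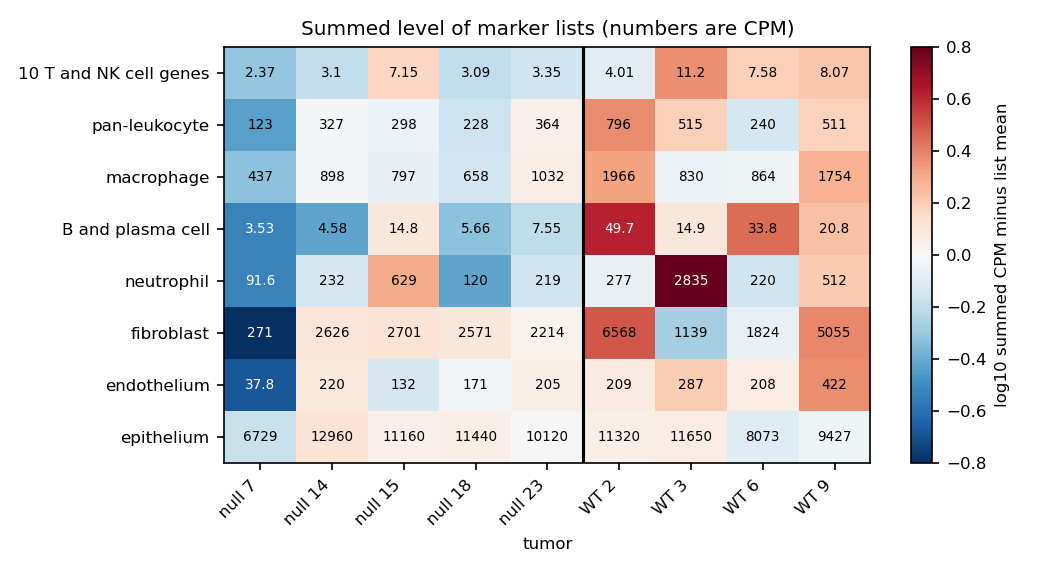
Summed CPM of the 10 T and NK cell genes and of 7 lists of markers of other cells (rows) in each tumor (columns; 5 null left of the line, 4 WT right of it); numbers are summed CPM and color gives the log10 sum minus the mean of the row. The sum of the 10 genes is highest in WT 3 (11.2 CPM), where the neutrophil sum is also highest, while the leukocyte, macrophage and B cell sums are highest in WT 2.

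The genes whose log2 CPM followed the mean of Cd3d, Cd3e, Cd3g and Lck most closely over the 9 tumors, among 13890 candidates, were not T cell markers. They were Agpat2, Mlx, Phgr1, Tnnt1 and Entpd8, with Pearson r of 0.98, 0.97, 0.95, 0.95 and 0.95. This is a description over tumors that also differ in group, and their edgeR adjusted p ran from 0.197 to 0.277. The T cell adhesion gene Cd2 (r = 0.94) ranked at 14 and Trdc (r = 0.93) at 29 among the candidates.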

How the data were processed

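The deposited table held estimated counts per Ensembl gene, 1 column per tumor. The authors' tools were Salmon 1.4.0 and DESeq 2 on GRCm38 and mm10, per the submitters' processing notes; annotation release and strandedness are not given in the sources used here. Symbols and coordinates came from GENCODE M21 (GRCm38), which named 54200 of 54453 rows. Of the list genes, Ccl19 and Ccl21a were left out because their symbols matched 2 rows each. Estimated counts were rounded (by at most 0.5). Low genes were dropped by filterByExpr at its minimum count of 10 and total of 15; the rest were TMM-scaled and fitted in edgeR 4.0.16 (R 4.3.3) without covariates; SE is the absolute log2 fold change over the square root of F. CPM used the TMM-scaled library, log2 CPM a prior count of 2. Alternatives were limma 3.58.1 (voom), DESeq2 1.42.0, other scalings and filters, sex and identifier covariates, and tumors left out. The fit was tested on simulated data.

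Named were all 10 members, up to 3 genes of smallest p per list, Scrib and Ptprc, and the 5 genes most like the CD3 and Lck mean; genes named beyond these (Trac, Thy1, Ncr1, Prf1, Ifng, Il4, Il17a, Il21 and the marker genes DESeq2 called) were chosen after their values were seen. Some genes that this rule picks are not reported here. Members and lists were chosen with earlier results of these data known. Libraries of a group were compared pairwise by chi-square; the closest pair gave 72.41 per degree of freedom, so none was counted as a repeat.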

Additional observations from a re-analysis of the deposited data

Results flagged for a closer look

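In 30 groups of values (the 10 genes and 5 ratios, in null and in WT tumors), 2 had a sample set apart from the rest by a gap test, where chance gives about 1 in 20. Both were null 15. Cd3e was 0.993 CPM in null 15, against 0.105 to 0.318 CPM in the other null tumors. Foxp3 over Cd4 was -1.05 on the log2 scale in null 15, from 7 and 15 counts, against -2.81 to -2.40 in the other null tumors.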

How the results depend on the processing

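No paired analysis was possible because null and WT tumors share no replicate number. Of the 10 genes 0 were called in every alternative run. The count of all genes called, 2, was 7 with no filter, 625 with DESeq2, 1 with sex and 0 with the identifier range as covariate, 0 without both WT 3 and null 7, and 0 to 1 with each tumor left out. Signs turned for Cd4 with limma-voom (0.072), with the identifier range (0.31), without WT 9 (0.62) and without null 14 (0.05). They turned for Foxp3 and Nkg7 without WT 3 (0.58 and 0.26) and without both WT 3 and null 7 (0.48 and 0.053). For Gzmb they turned when null 7 (0.001), null 18 (0.19), null 23 (0.07), WT 3 (0.09) or WT 6 (0.15) was left out, and without the pair of null 7 and WT 3 (0.21). With each tumor left out, log2 fold changes ran from -0.484 to 0.62 for Cd4, -0.80 to 0.58 for Foxp3, -1.366 to 0.26 for Nkg7 and -1.104 to 0.19 for Gzmb. Cd3d, Cd3e, Cd3g, Cd8a, Lck and Pdcd1 kept their sign in every alternative run. With each tumor left out, the log2 differences of the ratios, null minus WT, ran from -3.34 to -1.71 for Cd8a over Cd4, -1.18 to 0.41 for Foxp3 over Cd4, 0.93 to 2.00 for Gzmb over Cd8a, -0.80 to 0.015 for Pdcd1 over Cd3e and -0.56 to 0.14 for Cd3e over Ptprc. Foxp3 over Cd4 was 0.45 without both WT 3 and null 7. With 2 added to each count the differences were -1.25 for Cd8a over Cd4 and 0.69 for Gzmb over Cd8a, and no ratio changed sign. A minimum of 20 counts in the denominator left too few tumors for every ratio but Cd3e over Ptprc, and the strict filter removed every member but Lck. For list genes the same settings were chosen after seeing the data. Trbc1 turned without WT 3 (1.25; range with each tumor left out -2.964 to 1.25), Ctsw likewise (0.188; -1.425 to 0.188), Gzmd (0.422; -1.118 to 0.422) and Gzme (0.558; -1.376 to 0.558), and without both WT 3 and null 7 they were 1.568, 0.368, 0.696 and 0.86 in that order. Trbc2 turned with limma-voom (-0.081) and without null 14 (-0.541; -0.541 to 1.546). Cd86 passed in DESeq2 alone (adjusted p elsewhere 0.138 to 0.434). The cause of each change was not tested. Low counts limit Cd8a, Foxp3, Gzmb and Nkg7 most.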
